A study of Mus musculus with 39 samples.

Results

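The genes described here are glutathione transferases and targets of the transcription factor NRF2 in mouse liver: Gstm4, Gstm2, Gstt2 and Gstp1, which encode glutathione transferases, and Ephx1, Srxn1, Nqo1, Gclc, Gclm and Txnrd1. A member was measured by a probe whose only gene symbol is its own, and by the probe with the highest mean over the arrays where there were several. 9 of the 10 members had such a probe, 1 each, among 13840 genes so covered. No probe names Nqo1 alone, so Nqo1 has no value here. All 9 measured members had a value on every array and so passed the filter on missing values.

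The study measured liver RNA of mice, adult males on a 129SV background, with Applied Biosystems Mouse Genome Survey arrays. Wild-type mice and mice null for PPARα, the nuclear receptor for fatty acids, were dosed by gavage on 7 consecutive days. The PFOA arm received the ammonium salt of perfluorooctanoic acid, a persistent fluorinated surfactant, at 1 or 3 mg/kg in deionized water, or water alone. The second arm received 50 mg/kg of pirinixic acid, a synthetic PPARα agonist (its Wyeth code stands in the labels), in 0.5% methylcellulose, or methylcellulose alone. Each of the 10 groups has 4 arrays except wild type with methylcellulose, which has 3, so there are 39 arrays. The labels name the null strain by its genotype and say no more of the allele. Each array holds RNA of whole liver, in which fewer cells of a type and less RNA per cell cannot be told apart. The labels describe 4 animals per group, so the spread between arrays is taken as that between animals.

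NRF2 is held in the cytoplasm by KEAP1 and broken down until electrophiles or oxidants modify KEAP1. It then enters the nucleus, pairs with small MAF proteins and binds antioxidant response elements in the promoters of genes that conjugate, reduce and export reactive compounds. Many of these genes in liver, glutathione transferases and Ephx1 among them, also answer to the xenobiotic receptors CAR and PXR, and some to PPARα. Glutathione transferases join glutathione to electrophiles, and the tripeptide itself is made by glutamate-cysteine ligase, whose catalytic subunit is Gclc and whose modifier subunit is Gclm.

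The deposited values are log2 signals with a median of 9.14 on every array, and a difference of 1 is a doubling of signal. Of 33012 probes, limma was run on the 25295 that no array lacked, and a gene is said to rise or fall only with an adjusted p under 0.05 over all of them. Errors of differences are standard errors and those of means are standard deviations. The Ppara probe read 15.62 to 16.84 in wild-type and 15.003 to 16.29 in null arrays; where it lies relative to the deleted part is not known here, so it checks no label. Replicate 3 of wild type with PFOA at 1 mg/kg went against its label: Cox6b2, chosen after values were seen, was 9.06 there, against means of 13.95 in wild type with water and 7.61 to 8.44 in null groups, and Ehhadh and Cyp4a14 were 15.94 and 11.65, against means of 20.55 and 20.40 with PFOA 3 mg/kg. Results that rest on it are given with and without it. A group of probes that excludes the members split the arrays into a set of 16 and a set of 23 that the labels do not record; wild type with pirinixic acid has 0 arrays in the smaller set and every other group has arrays in both.

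PFOA at 3 mg/kg raised 4 of the 9 measured members in wild-type liver: Srxn1 4.0-fold, Gstm4 3.1-fold, Gstt2 2.7-fold and Ephx1 1.8-fold. None fell. In null liver the same dose raised 3: Gstm2 2.5-fold, Gstm4 2.5-fold and Ephx1 1.8-fold. Over all probes 5.82% were called in wild type (3.37% upward) and 0.3% in null mice (0.261% upward). The members lay between the 52.5th and the 99.6th percentile of mean signal. A fit of only the 12647 probes above the median mean called 1881 of them in wild type. The members were chosen with earlier results of these data known, so the shares stand beside the counts and are no test. The groups did not overlap for 4 members in wild type and 4 in null mice, against 10.2% and 5.93% of all probes. The median difference of the 9 members was 0.07 in wild type and 0.18 in null mice, against -0.02 and -0.03 over all probes tested.

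**Figure D1:**
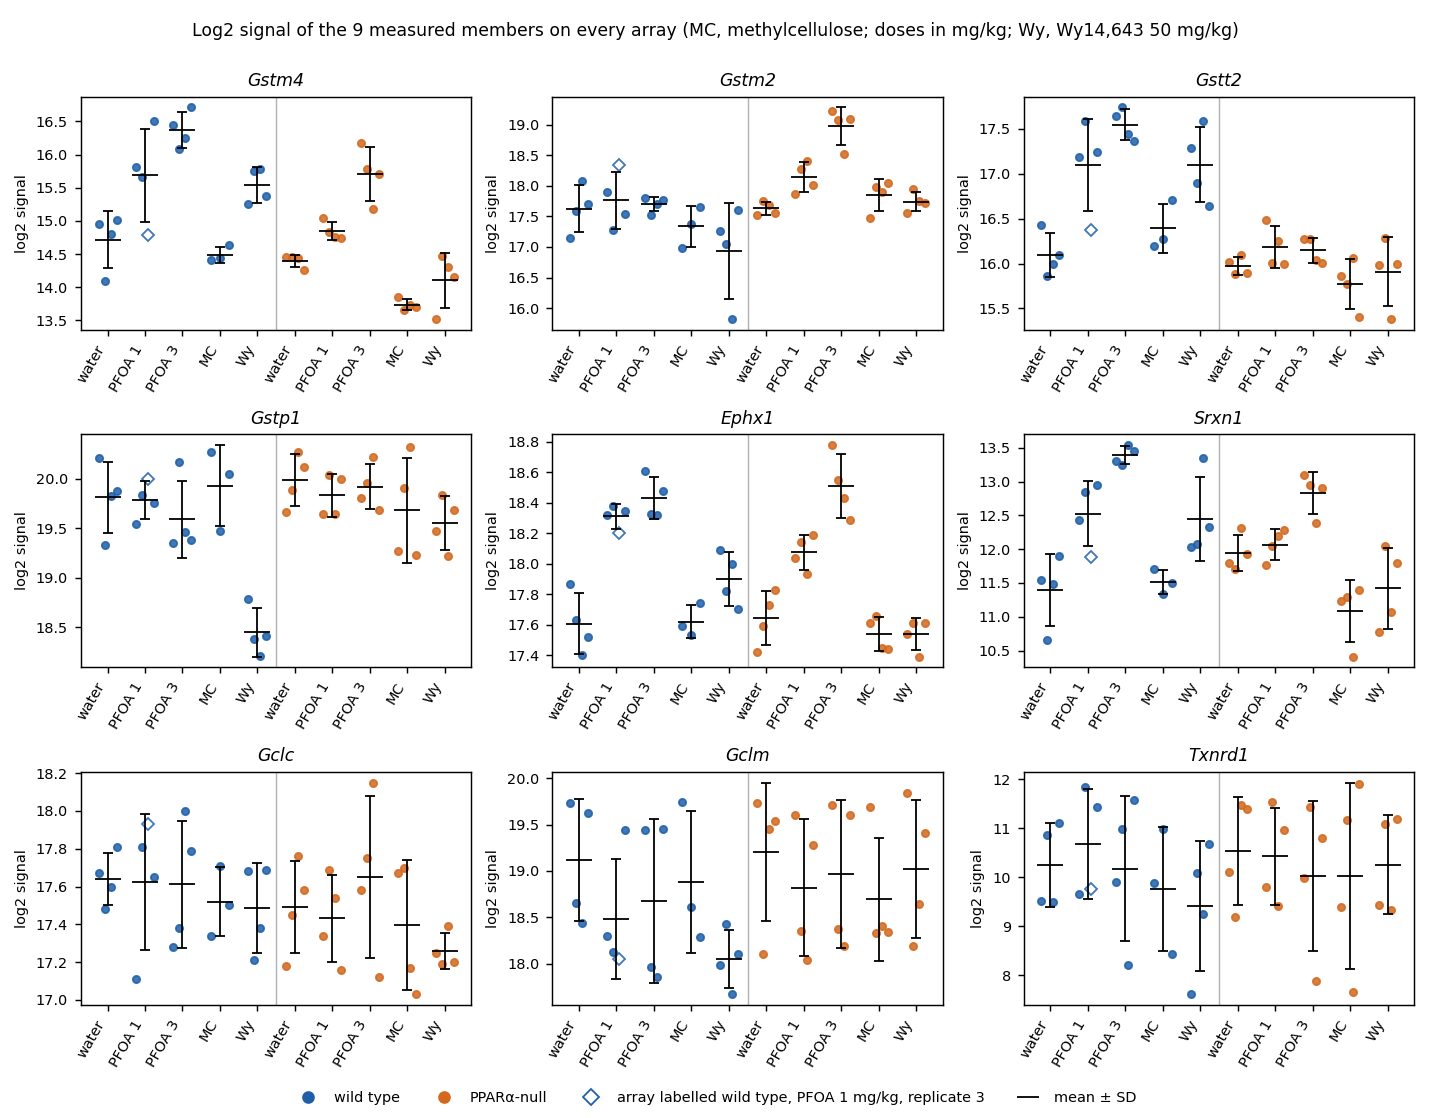
Log2 signal (vertical axes) of the 9 measured members on each of the 39 arrays, by group (horizontal axes), with wild type in blue and PPARα-null in orange; bars are mean ± SD, and the open diamond is the array that went against its label. In wild type Gstm4, Gstt2, Ephx1 and Srxn1 with PFOA 3 mg/kg lie above all water arrays, Gstm2 is high in null mice with PFOA 3 mg/kg, and Gstp1 is low in wild type with pirinixic acid.

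Gstm4 encodes a mu-class cytosolic glutathione transferase. In wild type its log2 signal was 14.96, 14.09, 14.80 and 15.02 on the 4 water arrays and 16.44, 16.08, 16.25 and 16.71 on the 4 arrays with PFOA 3 mg/kg. All 4 treated arrays lay above every water array. The difference was 1.65 ± 0.25 (3.13-fold, adjusted p = 6.6e-05). In null mice Gstm4 was 14.45, 14.45, 14.44 and 14.26 with water and 16.17, 15.78, 15.18 and 15.70 with PFOA 3 mg/kg, again without overlap. That rise was 1.31 ± 0.25 (2.48-fold, adjusted p = 0.0087). The response in null mice less that in wild type was -0.34, with a 95% confidence interval of -1.06 to 0.39 (adjusted p = 0.77), so no difference between genotypes was detectable with these arrays. Within the smaller and the larger array set the wild-type difference was 1.58 and 1.72, and the null difference 1.56 and 1.03 (adjusted p = 0.082 and 0.84 in the null fits). In the larger set null mice have 1 water array, so the values there set the dosed arrays against a single one, assumed to vary like the other groups. The null rise had an adjusted p of 0.056 without the PFOA 3 mg/kg array of replicate 1.

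With pirinixic acid Gstm4 rose in wild type as well. It was 14.41, 14.44 and 14.63 on the 3 methylcellulose arrays and 15.25, 15.76, 15.79 and 15.37 on the pirinixic acid arrays, which do not overlap. The difference was 1.05 ± 0.27 (2.07-fold, adjusted p = 0.017). It was 1.01 within the larger array set (adjusted p = 0.095), the only one with pirinixic acid arrays in wild type. Leaving out 1 array in turn moved it between 0.97 and 1.15, and the adjusted p passed 0.05 without methylcellulose replicate 1 or 2 or pirinixic acid replicate 3, reaching 0.070. In null mice Gstm4 was 13.85, 13.65, 13.74 and 13.71 with methylcellulose and 13.52, 14.47, 14.30 and 14.16 with pirinixic acid, where 3 arrays lay above and 1 below the whole vehicle range; the difference was 0.37 ± 0.25 (adjusted p = 1.00). The test between genotypes gave -0.68, from -1.43 to 0.08 (adjusted p = 0.39).

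Gstm2, another mu-class transferase, moved in null mice. Its signal there was 17.52, 17.75, 17.69 and 17.55 with water, 17.86, 18.28, 18.40 and 18.02 with PFOA 1 mg/kg and 19.22, 19.07, 18.52 and 19.09 with PFOA 3 mg/kg. The 3 groups do not overlap one another. The 3 mg/kg difference was 1.35 ± 0.26 (2.54-fold, adjusted p = 0.0094), and that at 1 mg/kg was 0.51 ± 0.26 (adjusted p = 1.00). In wild type Gstm2 was 17.15, 17.59, 18.08 and 17.70 with water and 17.80, 17.53, 17.71 and 17.77 with PFOA 3 mg/kg, and the treated arrays all lay inside the water range (difference 0.07 ± 0.26). The test of the genotype difference gave 1.27 ± 0.37 (95% interval 0.52 to 2.03, unadjusted p = 0.0017), which missed the threshold after adjustment over all probes (adjusted p = 0.15), so Gstm2 is not shown to respond differently in the 2 genotypes. The null rise kept its call without any single array (1.27 to 1.496, adjusted p up to 0.049) and was 1.56 and 1.05 within the smaller and larger array set (adjusted p = 0.036 and, against a single water array, 1.00).

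The mu-class genes are close relatives. Gstm4 and Gstm2 are neighbours of Gstm1 in the RefSeq gene order, and Gstm2 also lies beside Gstm3; which of these transcripts bind each probe was not tested, so a value given under 1 symbol is uncertain to that extent. Gstm1, Gstm5 and Gstm6, named as relatives and not by the size of their changes, were measured by their own probes and had differences of 0.15, 0.26 and -0.06 in wild type and 0.30, 0.07 and 0.46 in null mice with PFOA 3 mg/kg, none of them called (adjusted p 0.59 to 0.97).

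Gstt2 encodes a theta-class transferase. In wild type it was 16.43, 15.86, 16.00 and 16.09 with water and 17.65, 17.74, 17.44 and 17.37 with PFOA 3 mg/kg. Every treated array lay above every water array, and the rise was 1.45 ± 0.22 (2.74-fold, adjusted p = 5.7e-05). It was 1.25 and 1.65 within the smaller and larger array set. In null mice Gstt2 was 16.02, 15.88, 16.09 and 15.89 with water and 16.27, 16.27, 16.04 and 16.01 with PFOA 3 mg/kg. Those groups overlap, and the difference was 0.18 ± 0.22 (adjusted p = 0.89). The null response was lower than the wild-type response by 1.27 on the log2 scale, with an interval of -1.91 to -0.64, and narrowly missed the threshold (adjusted p = 0.059). It passed under 5 alternatives and without wild-type water replicate 1, with adjusted p from 0.012 to 0.049.

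With pirinixic acid in wild type Gstt2 was 17.29, 16.90, 17.59 and 16.64 against 16.20, 16.27 and 16.71 with methylcellulose. Only pirinixic acid replicate 4, at 16.64, lay inside the vehicle range. The difference of 0.71 ± 0.24 was not called (adjusted p = 0.067), and without that array it was 0.87 (adjusted p = 0.036). In null mice the difference was 0.14 ± 0.22 and the test between genotypes gave -0.57 (adjusted p = 0.42). The genes most alike to Gstt2 over the 39 arrays were Oplah, which recycles 5-oxoproline to glutamate for glutathione synthesis (r = 0.95), Decr1, a reductase of mitochondrial fatty acid oxidation (r = 0.94), and Abcg2, an export pump (r = 0.93).

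Gstp1 encodes the pi-class transferase, and it was the one member that fell. In wild type it was 20.27, 19.47 and 20.05 with methylcellulose and 18.79, 18.38, 18.21 and 18.41 with pirinixic acid. All 4 pirinixic acid arrays lay below the other 35 arrays of the study, which read 19.22 or more. The fall was -1.48 ± 0.25 (2.79-fold lower, adjusted p = 0.00040), and -1.31 within the larger array set (adjusted p = 0.062). In null mice Gstp1 was 19.27, 19.91, 20.32 and 19.23 with methylcellulose and 19.47, 19.84, 19.22 and 19.69 with pirinixic acid, and the groups overlap (difference -0.13 ± 0.23). Here the test between genotypes passed: the null response exceeded the wild-type response by 1.35 ± 0.34 (95% interval 0.66 to 2.05, adjusted p = 0.040). That call was lost in 9 of 15 fits that left out 1 array (1.19 to 1.58, adjusted p up to 0.12) and kept in the other 6. Gstp1 lies beside Gstp2 in the RefSeq gene order, and which of the paired transcripts the probe binds was not tested.

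With PFOA the Gstp1 signal stayed near that of water: 19.81 ± 0.36 with water, 19.78 ± 0.19 with 1 mg/kg and 19.59 ± 0.39 with 3 mg/kg in wild type (SD, n = 4 each), and 19.71 ± 0.16 with 1 mg/kg without the array that went against its label (n = 3). The 3 mg/kg difference was -0.22, with an interval of -0.69 to 0.25. Doses and vehicles of PFOA and pirinixic acid differ, so these values stand side by side and the compounds were not compared.

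**Figure D2:**
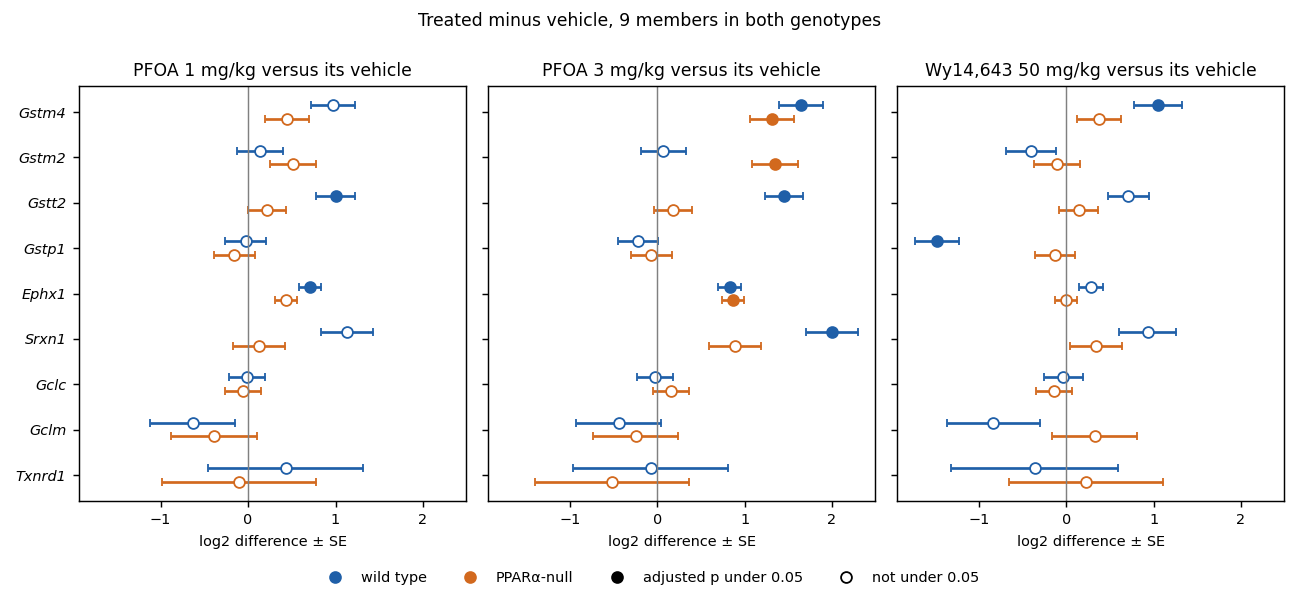
Treated-minus-vehicle difference in log2 signal (horizontal axes) of the 9 members (vertical axis), for PFOA 1 mg/kg, PFOA 3 mg/kg and pirinixic acid 50 mg/kg, with wild type in blue and PPARα-null in orange; bars are the standard error of the limma fit and filled points have an adjusted p under 0.05. Ephx1 has nearly the same value in both genotypes with PFOA 3 mg/kg (0.83 and 0.87), and Gstp1 is the only filled point below 0.

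Ephx1, microsomal epoxide hydrolase, turns epoxides into diols, and it rose in both genotypes. In wild type it was 17.87, 17.63, 17.40 and 17.52 with water, 18.32, 18.38, 18.20 and 18.35 with PFOA 1 mg/kg and 18.61, 18.33, 18.32 and 18.48 with 3 mg/kg. Both dosed groups lay wholly above water and overlapped each other. The differences from water were 0.71 ± 0.13 at 1 mg/kg (1.63-fold, adjusted p = 0.0041) and 0.83 ± 0.13 at 3 mg/kg (1.78-fold, adjusted p = 7.3e-05). In null mice Ephx1 was 17.42, 17.59, 17.73 and 17.83 with water, 18.04, 18.14, 17.93 and 18.19 with 1 mg/kg and 18.78, 18.55, 18.43 and 18.29 with 3 mg/kg. These 3 groups do not overlap. The null difference at 3 mg/kg was 0.87 ± 0.13 (1.83-fold, adjusted p = 0.00024), and that at 1 mg/kg was 0.43 ± 0.13, not called over all probes (unadjusted p = 0.0019, adjusted p = 0.89).

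The genotype difference in the Ephx1 response to 3 mg/kg was 0.04, with an interval of -0.33 to 0.41. Ephx1 had the smallest spread of the members, a within-group SD of 0.15 against a median of 0.54 over all probes. Within the smaller and larger array set its 3 mg/kg difference was 0.85 and 0.81 in wild type and 0.88 and 0.90 in null mice, with calls lost on these fewer arrays in the smaller set (adjusted p = 0.18) and in both null fits (0.26, and 0.39 against a single water array). With pirinixic acid the difference was 0.28 ± 0.14 in wild type (adjusted p = 0.24) and -0.0023 ± 0.13 in null mice.

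Srxn1 encodes sulfiredoxin, which restores peroxiredoxins after over-oxidation, and it showed the largest wild-type rise among the members. Its promoter window and those of Gstm4, whose signal ran most closely with it, Gstp1, which fell, and Gclm are shown because they differ in which spellings of the NRF2 element they hold. Each is the RefSeq sequence of GRCm38.p6 from 250 bases before to 50 after the start site, 5′ to 3′ on the gene's strand. Capitals mark matches to TGANTCAGC, the form shared with the factor NF-E2, or to the core TGACNNNGC, on either strand; a site with C at the N of the first spelling matches both.
Srxn1 (chr2:152105274-152105573, plus strand): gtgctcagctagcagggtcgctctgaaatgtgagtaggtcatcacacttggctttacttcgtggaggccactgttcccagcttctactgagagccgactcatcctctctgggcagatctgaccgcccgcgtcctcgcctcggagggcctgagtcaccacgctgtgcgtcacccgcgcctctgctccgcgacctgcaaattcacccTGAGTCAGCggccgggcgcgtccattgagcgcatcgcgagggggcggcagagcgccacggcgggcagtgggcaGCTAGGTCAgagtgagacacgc
Gstm4 (chr3:108044807-108045106, minus strand): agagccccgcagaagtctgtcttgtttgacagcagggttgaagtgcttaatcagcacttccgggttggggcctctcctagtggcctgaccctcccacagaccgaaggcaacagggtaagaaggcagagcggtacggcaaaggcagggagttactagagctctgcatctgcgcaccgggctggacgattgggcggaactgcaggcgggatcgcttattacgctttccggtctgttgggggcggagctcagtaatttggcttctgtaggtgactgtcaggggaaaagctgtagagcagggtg
Gstp1 (chr19:4037863-4038162, minus strand): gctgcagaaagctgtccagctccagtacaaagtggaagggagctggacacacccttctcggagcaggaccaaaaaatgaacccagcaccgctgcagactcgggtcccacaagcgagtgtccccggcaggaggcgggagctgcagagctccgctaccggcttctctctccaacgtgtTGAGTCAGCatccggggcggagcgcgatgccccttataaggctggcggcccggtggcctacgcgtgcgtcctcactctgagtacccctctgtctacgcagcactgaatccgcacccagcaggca
Gclm (chr3:122245307-122245606, plus strand): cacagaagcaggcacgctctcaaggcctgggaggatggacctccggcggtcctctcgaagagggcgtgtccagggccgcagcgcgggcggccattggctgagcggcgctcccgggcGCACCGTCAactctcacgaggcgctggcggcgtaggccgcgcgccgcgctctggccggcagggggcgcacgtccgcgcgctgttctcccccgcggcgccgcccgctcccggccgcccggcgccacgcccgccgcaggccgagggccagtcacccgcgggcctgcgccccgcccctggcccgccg

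Srxn1 holds TGAGTCAGC 45 to 37 bases before the start and, on the other strand, a core match 28 to 36 bases after it. Gstp1 holds the same TGAGTCAGC, 74 to 66 bases before the start, and was not called upward in any treatment, and Gclm holds a core match 134 to 126 bases before. Gstm4 holds neither. The RefSeq table had 11 windows for 8 members. TGANTCAGC was found in 2 members and the core in 3 (Srxn1, Gclm and 1 of the Txnrd1 windows), which is 3 of the 11 windows for the core. Counted by window, 1.19% and 12.4% of 32851 promoters of this length had a match. An exact DR1 repeat, the element bound by PPARα with its partner RXR, matched in 0 of the 8 and in 0.0396% of all promoters. These are matches of letters in a short window and no measure of binding.

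In wild type the Srxn1 signal was 11.54, 10.65, 11.48 and 11.90 with water and 13.31, 13.25, 13.54 and 13.45 with PFOA 3 mg/kg. The groups are far apart, and the rise was 1.998 ± 0.30 (3.99-fold, adjusted p = 4.8e-05). It was 1.66 (adjusted p = 0.066) and 2.33 within the smaller and larger array set. In null mice Srxn1 was 11.80, 11.71, 12.32 and 11.93 with water and 13.09, 12.95, 12.39 and 12.90 with PFOA 3 mg/kg. All 4 treated arrays again lay above all water arrays, yet the difference of 0.89 ± 0.30 was not called over all probes (unadjusted p = 0.0051, adjusted p = 0.32). The test between genotypes gave -1.11, with an interval of -1.96 to -0.25 (adjusted p = 0.31), so the smaller null value is not shown to differ from the wild-type one.

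With pirinixic acid Srxn1 was 12.03, 12.07, 13.35 and 12.33 in wild type, all above the methylcellulose arrays at 11.71, 11.34 and 11.50. Replicate 3 stood apart at 13.35. The difference of 0.93 ± 0.32 was not called (adjusted p = 0.078). In null mice Srxn1 was 11.24, 11.30, 10.41 and 11.39 with methylcellulose and 10.77, 12.05, 11.07 and 11.79 with pirinixic acid, with overlap and a difference of 0.34 ± 0.30. Srxn1 and Gstm4 were each among the 3 genes most alike to the other out of 11590 (r = 0.89 over the 39 arrays), and their deviations from the group means, which share array and animal, had r = 0.62.

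At 1 mg/kg in wild type Ephx1 and Gstt2 were called, 2 of the 9 members against 0.273% of all probes (0.241% upward); Ephx1 alone had groups that did not overlap, against 5.24% of all probes. Gstt2 was 17.19, 17.59, 16.37 and 17.24 with 1 mg/kg, and its difference from water was 1.00 ± 0.22 (2.003-fold, adjusted p = 0.035). Gstm4 was 15.81, 15.66, 14.79 and 16.50 (0.97 ± 0.25, adjusted p = 0.11), and Srxn1 was 12.43, 12.84, 11.88 and 12.95 (1.13 ± 0.30, adjusted p = 0.11). For Gstt2, Gstm4 and Srxn1 the third value, from the array that went against its label, was the lowest of the 4 and lay inside the water range. Without that array 4 members were called: Gstt2 (1.24, adjusted p = 0.00079), Gstm4 (1.27, adjusted p = 0.0022), Ephx1 (0.75, adjusted p = 0.0022) and Srxn1 (1.35, adjusted p = 0.019). The share of all probes called in that fit is not given here, so its count is not weighed against that with all arrays. Gstt2 lost its call in 6 other fits that left out 1 array, those without water replicate 2, 3 or 4 or PFOA replicate 1, 2 or 4, which leave 1 member called. Within the smaller and larger array set the Gstt2 difference was 0.98 and 1.12 and that of Ephx1 0.66 and 0.78, none called; the smaller set holds 1 array of the dosed group, which is assumed to vary like the others.

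In null mice PFOA at 1 mg/kg called 0 of the 9 members with limma, against 0.0119% of all probes. An unadjusted p under 0.05 was found for 1 of the 9 and for 3.97% of all probes. Gstm4, Gstm2 and Ephx1 were nonetheless higher on every treated array than on every water array, 3 of the 9 members where 4.39% of all probes have groups that do not overlap. Gstm4 was 15.05, 14.84, 14.76 and 14.74 with 1 mg/kg, a difference of 0.45 ± 0.25 from water. With pirinixic acid in null mice 0 of the 9 were called and 0 had an unadjusted p under 0.05; of all 25295 probes 0% were called and 2.73% had an unadjusted p under 0.05. The groups overlapped for all 9, against 1.91% of all probes with groups apart. In wild type pirinixic acid called 2 members, Gstm4 up and Gstp1 down, against 6.1% of all probes (2.8% up and 3.3% down). The groups did not overlap for 3, Gstm4, Gstp1 and Srxn1, against 17.4% of all probes.

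The tests of the genotype difference called 0 of the 9 members for PFOA 3 mg/kg (0.415% of all probes called; 3 members and 10.7% of all probes with an unadjusted p under 0.05), 0 for PFOA 1 mg/kg (0% called; 2 members and 5.04% unadjusted) and 1, Gstp1, for pirinixic acid (1.24% of all probes, 0.696% upward). Without the array that went against its label the PFOA 1 mg/kg test still called 0; Gstt2 had the smallest adjusted p there, 0.27, at -1.03. These differences share their wild-type and null vehicle arrays across doses.

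Between 3 and 1 mg/kg of PFOA limma called 0 of the 9 in wild type (0.0277% of all probes called; 3 members and 7.5% of all probes with an unadjusted p under 0.05) and 0 in null mice (0.00791% called; 4 members and 4.57% unadjusted). The 3 wild-type members were Srxn1, Gstm4 and Gstt2. Gstm4 differed by 0.68 ± 0.25 and Gstt2 by 0.45 ± 0.22. Without the array that went against its label these differences were 0.38 ± 0.24 and 0.21 ± 0.21. In null mice Gstm4, Gstm2, Ephx1 and Srxn1 were higher on every 3 mg/kg array than on every 1 mg/kg array, by 0.86, 0.84, 0.44 and 0.76, and 2.95% of all probes have groups apart in that comparison. In wild type Srxn1 alone did so, against 3.6% of all probes, by 0.87 ± 0.30 (adjusted p = 0.40), and by 0.65 without the array that went against its label.

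No member was called between untreated groups. Null against wild type called 0 of the 9 with water (0.127% of all probes called and 7.55% with groups apart; 0 members and 10.8% of all probes with an unadjusted p under 0.05) and 0 with methylcellulose (0.186% called and 13.6% with groups apart; 2 members, Gstm4 and Gstt2, and 12.5% of all probes unadjusted). Methylcellulose against water called 0 in wild type (0 members and 8.66% of all probes unadjusted) and 0 in null mice (2 members, Gstm4 and Srxn1, and 11.6% unadjusted), with 0% of all probes called in each and 7.95% and 7.85% with groups apart. With methylcellulose the null arrays of Gstm4 and Gstt2 lay below all wild-type arrays, by 0.76 ± 0.27 and 0.62 ± 0.24 (adjusted p = 0.25 and 0.27). Between the vehicles in null mice 2 members had groups apart. The methylcellulose arrays of Gstm4 and Srxn1 lay below all water arrays, by 0.66 ± 0.25 and 0.86 ± 0.30 (limma adjusted p = 0.37 and 0.35).

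Order of group means also differed from member to member. For Gstm4 the highest mean was 16.37 with PFOA 3 mg/kg in wild type and the lowest 13.74 in null mice with methylcellulose. The place behind the highest was taken by null mice with PFOA 3 mg/kg (15.71), just above wild type with 1 mg/kg (15.69), and by the latter (15.99 ± 0.44, n = 3) without the array that went against its label; these groups overlap either way. Srxn1 ran from 13.39 and 12.83 in the same 2 groups down to 11.09 in null mice with methylcellulose. Ephx1 was highest in null mice with PFOA 3 mg/kg (18.51), next to wild type with that dose (18.43) and with 1 mg/kg (18.31); these 3 neighbours overlap. Gstt2 was highest in wild type with PFOA 3 mg/kg (17.55), followed by pirinixic acid (17.10) and PFOA 1 mg/kg (17.10, or 17.34 ± 0.22 and then above pirinixic acid without the array that went against its label), which overlap each other in both cases, while the means of the 5 null groups, 15.77 to 16.19, overlap throughout.

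Gclc was not called in any of the 15 comparisons. Its group means lay between 17.26 and 17.65. With PFOA 3 mg/kg it was 17.28, 17.38, 18.00 and 17.79 in wild type against 17.67, 17.48, 17.60 and 17.81 with water. The treated arrays spread on both sides of the water range, and the difference was -0.03, with an interval of -0.45 to 0.39. Gclm and Txnrd1 were not called either, and within groups their signals varied with the array set or the replicate number.

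Gclm followed the array sets. It read 19.28 to 19.84 on the 16 arrays of the smaller set and 17.67 to 18.66 on the 23 of the larger, with no overlap between the sets, as did 0.814% of all probes tested. The sets were split on 208 other probes that are among those tested, so that share is no independent background. The sets held 93.9% of its variance within groups, against a median of 3.57% over all probes. With water in wild type, for example, Gclm was 19.73, 18.66, 18.44 and 19.63, and replicates 1 and 4 belong to the smaller set. The group mean was lowest in wild type with pirinixic acid, 18.05 ± 0.31 (n = 4), the group with 0 arrays in the smaller set. Its difference from methylcellulose was -0.83 ± 0.53 as fitted (adjusted p = 0.38) and -0.39 ± 0.16 with array set as a block (adjusted p = 0.13). With the same block the wild-type difference with PFOA 3 mg/kg was -0.44 ± 0.14 (adjusted p = 0.060). The gene most alike to Gclm was Hmgb1, a chromatin protein (r = 0.97).

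**Figure D3:**
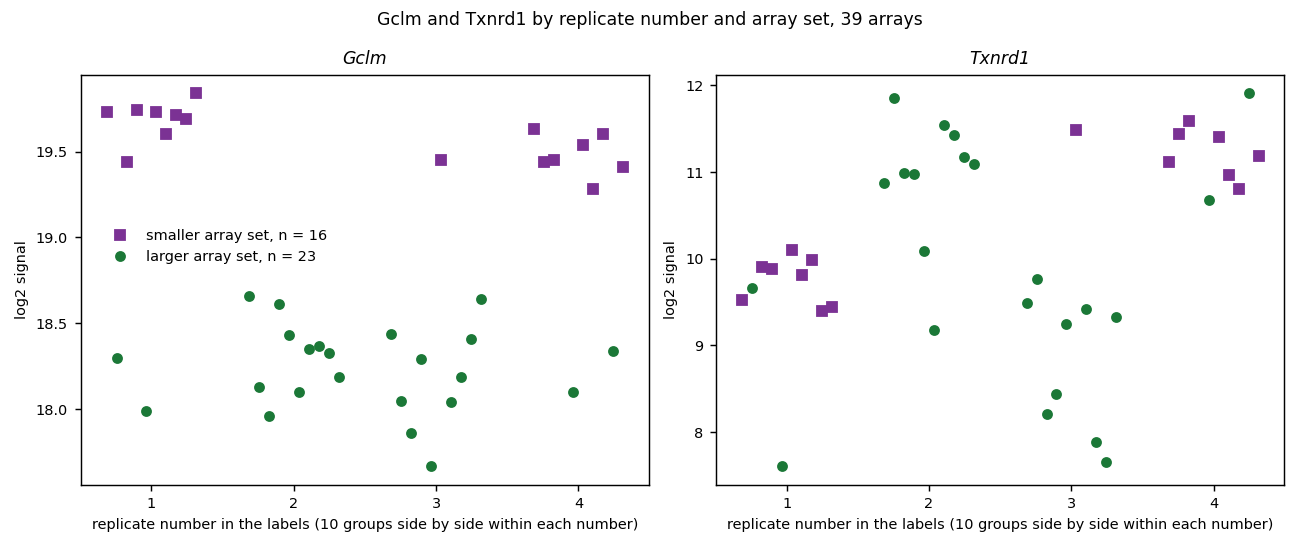
Log2 signal (vertical axes) of Gclm and Txnrd1 on the 39 arrays by the replicate number of the labels (horizontal axes, the 10 groups side by side within a number); purple squares are the 16 arrays of the smaller set and green circles the 23 of the larger. Gclm separates by set without overlap, and Txnrd1 is lower with numbers 1 and 3 than with 2 and 4, apart from null mice with water. Replicates 2 and 3 of that group stand among arrays numbered 3 and 4 in the order of the deposited samples.

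Txnrd1 encodes cytosolic thioredoxin reductase, and its signal varied with the replicate number of the labels. It read 7.61 to 10.10 with number 1, 9.18 to 11.85 with number 2, 7.66 to 11.48 with number 3 and 10.68 to 11.91 with number 4. The number held 63.4% of its variance within groups, against a median of 13.1% over all probes. Null mice with water departed from that order by label number, at 10.10, 9.18, 11.48 and 11.40. In the order of the deposited samples, however, replicate 2 of this group stands among arrays numbered 3, and replicate 3 among those numbered 4. Placed so, the group is no exception. Its 9.18 lies among the number 3 arrays, which read up to 9.77 in the other groups, and its 11.48 within the range of number 4. The within-group SD of Txnrd1 was 1.30, the 99.3rd percentile of the probes tested. With PFOA 3 mg/kg the difference was -0.07 in wild type, with an interval of -1.88 to 1.73.

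In the wider pathway 72 genes in 5 lists were looked up and 51 had a tested probe. The lists were chosen with earlier results of these data known, so the shares called here and below are no test of the pathway. PFOA 3 mg/kg in wild type raised 11 of the 51 and lowered 1, which is 23.5% of them against 5.82% of all probes (3.37% upward). A fit of only the 12647 probes above the median mean called 1881 of them. That fit also adjusts over fewer probes, so the part of signal level in the share called cannot be told apart. The list genes were not matched to all probes for signal. Of 10 tested genes of glutathione synthesis, recycling and peroxidases, 3 rose: Ggct, which breaks down gamma-glutamyl peptides (1.75, 3.37-fold), Oplah (1.62, 3.07-fold) and Gpx4, the lipid hydroperoxide peroxidase (0.77, 1.71-fold). So did 6 of 17 other NRF2 targets, with Ces1g, a carboxylesterase (1.19), Blvrb, biliverdin reductase B (1.00), Aldh1a1 (0.66) and Prdx1 (0.51) leading by adjusted p. Me1, malic enzyme, which makes NADPH, rose 4.80-fold (2.26 ± 0.46, adjusted p = 0.0020). Of 12 other glutathione transferases only Gstk1, the peroxisomal and mitochondrial kappa form, rose (0.52, adjusted p = 0.029), and of 9 NRF2 regulators Mafg, a small MAF partner, fell (-0.42, adjusted p = 0.030). The median of the 51 was 0.26 against -0.02 over all probes. The count moved to 3 and 2 within the smaller and larger array set and to 5 with only the arrays compared. Those fits called 262, 1128 and 441 of all 25295 probes.

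3 textbook genes of the pathway that the naming rule does not reach are given for comparison, chosen after their values were seen. Hmox1, heme oxygenase 1, differed by -0.05 ± 0.19 with PFOA 3 mg/kg in wild type and by 0.01 ± 0.19 in null mice, and Keap1 by 0.27 ± 0.15 and -0.04 ± 0.15, all uncalled (adjusted p 0.37 to 0.99). Gsr, glutathione reductase, was 0.56 ± 0.19 in wild type (adjusted p = 0.084).

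In null mice 1 of the 51 was called with PFOA at either dose, and it was the same gene: Ces1g rose by 2.28 ± 0.22 with 3 mg/kg (4.85-fold, adjusted p = 1.6e-07) and by 1.52 ± 0.22 with 1 mg/kg (2.87-fold, adjusted p = 0.0016). The 2 doses share their water arrays. In wild type 1 mg/kg also raised Ces1g alone (1.08, adjusted p = 0.021), and 4 of the 51 without the array that went against its label, Oplah, Gpx4, Me1 and Ces1g. The share of all probes called without that array is not given here. Oplah and Ggct had null differences of 0.25 and 0.09 with 3 mg/kg, uncalled. The genotype test for 3 mg/kg called 1 of the 51, Gstk1 (-0.88 ± 0.21, adjusted p = 0.047).

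pirinixic acid in wild type raised 7 of the 51 and lowered 2, which is 17.6% of them against 6.1% of all probes (2.8% up and 3.3% down). Me1 rose 5.18-fold (2.37), Ggct 4.57-fold (2.19), Gstt3 2.10-fold (1.07) and Gstk1 1.82-fold (0.86), with smaller rises of Aldh1a1 (0.64), Gpx1 (0.44) and Fth1, ferritin heavy chain (0.44). Gsta4, the alpha-class form that acts on hydroxyalkenals, fell by 1.01 on the log2 scale and Akr1b8, an aldo-keto reductase, by 1.10. In null mice 0 of the 51 were called with limma. The genotype test called Gstk1 (-1.16) and Ggct (-2.21), 2 of the 51, against 1.24% of all probes. Within the larger array set Ggct and Akr1b8 were called, and with only the arrays compared Me1 was. Among untreated mice Glo1, glyoxalase 1, was lower in null liver by 1.07 with either vehicle (adjusted p = 0.017 with water and 0.023 with methylcellulose).

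**Figure D4:**
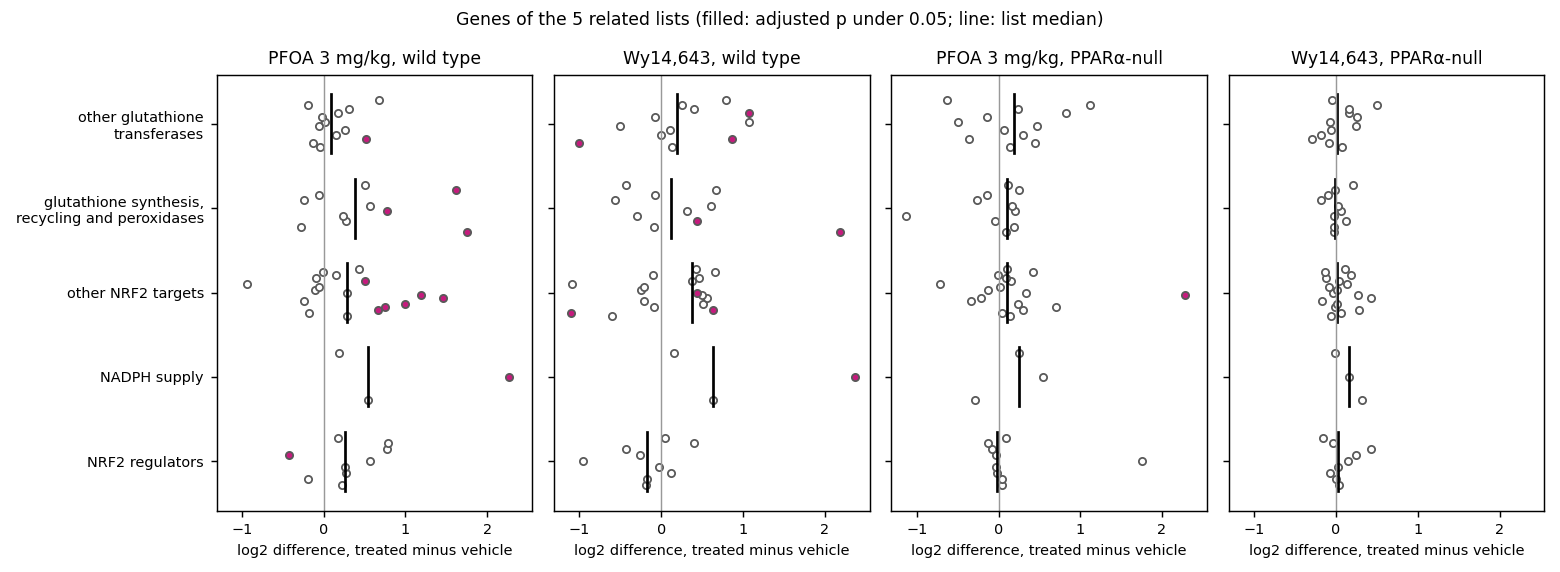
Treated-minus-vehicle log2 difference (horizontal axes) of the 51 tested genes of the 5 related lists (vertical axis) in 4 comparisons; each point is 1 gene, filled where the adjusted p is under 0.05, and the line is the list median. In wild type 12 points are filled for PFOA 3 mg/kg and 9 for pirinixic acid; in null mice 1 (Ces1g) and 0.

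Some markers of liver cell types were called in the same comparisons. Over all probes 5.82% were called with PFOA 3 mg/kg in wild type and 0.3% in null mice. With pirinixic acid in wild type the share was 6.1%. With PFOA 3 mg/kg in wild type 1 of 5 hepatocyte markers fell (Ahsg, -0.81), and the mean of the list was 19.51 to 19.75 on treated and 19.97 to 20.18 on water arrays. There, 1 of 8 Kupffer cell markers fell (Vsig4), and the list mean was 11.91 to 12.39 against 12.41 to 12.74 with water. Of 8 endothelial markers 2 fell (Stab2 and Kdr) and 1 rose (Lyve1), and 1 of 6 stellate markers fell (Dcn). Those list means overlapped water (endothelial 13.20 to 13.61 against 13.21 to 13.42, stellate 11.37 to 12.16 against 11.64 to 11.91). In null mice with the same dose no hepatocyte marker was called, and that list mean was 19.64 to 19.99 against 20.06 to 20.23 with water. With pirinixic acid in wild type, where Gstp1 fell, 4 of 8 Kupffer cell markers fell (Clec4f, Vsig4, C1qa and C1qb; list mean 12.09 to 12.35 against 12.60 to 12.95 with methylcellulose), as did 3 of 8 endothelial markers and Ahsg. The endothelial list mean overlapped methylcellulose (13.14 to 13.52 against 13.21 to 13.64), and so did the hepatocyte mean (19.40 to 19.93 against 19.67 to 20.41). There 1 of 3 red blood cell markers also fell (Alas2, -1.01; list mean 13.54 to 14.14 against 14.26 to 14.67). In null mice with PFOA 3 mg/kg the neutrophil gene S100a8 rose by 7.44 and the stellate gene Col1a1 by 3.10, each 1 gene of its list, and the neutrophil list mean was 10.46 to 11.05 against 8.61 to 9.47 with water. S100a8 carried that shift: the list median was 0.17, and S100a9, Elane and Camp differed by -0.28, -0.62 and 0.63, uncalled. The part of these shifts in the members' values was not tested.

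The genes most alike to the other members over the 39 arrays were chosen by Pearson's r alone, over arrays that share treatments and array sets. Gstm2 ran with Cyp2c37 (r = 0.87), Cyp2b10 (r = 0.86) and Ces2a (r = 0.86). Gstm4 ran with Csrp3 (r = 0.90) besides Srxn1, and Gstp1 with Spin1 (r = 0.80), Ugt2b1 (r = 0.77) and Gsta4 (r = 0.77). For Ephx1 the highest was 0.85 (4931406C07Rik) and for Gclc 0.73 (Eps8l2), the lowest of the members' best partners. Txnrd1 was most alike to Slc6a13 (r = 0.86).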

How the data were processed

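Total liver RNA was measured on 39 arrays. Per the labels' protocols, RNA with an integrity number of at least 8.5 gave digoxigenin-labelled cRNA with 1 round of amplification. The authors deposited log2 signal values whose quantiles match between arrays, as read from the values themselves; base 2 is inferred from their range, 4.85 to 21.5. No label names the background correction or software. The number of arrays limits the precision.

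limma 3.58.1 (R 4.3.3), checked on simulated data, fitted a mean for each group to the 25295 probes that no array lacked, with moderated variances (29 residual degrees of freedom). P-values are two-sided and Benjamini-Hochberg adjusted over all probes of a comparison, 15 in all. The 7717 probes with missing values (1.15% of values) were left out. Probes were named from the platform annotation: 14411 have 1 symbol, 247 several and 18354 none. Members and gene lists were chosen with earlier results of these data known; from the lists, up to 4 genes per list with the smallest adjusted p under 0.05 are named, and for each member up to the 3 genes with the highest r. Replicate numbers were not used as pairs, since nothing in the labels ties the numbers to a litter or day. Deviations of same-numbered arrays correlated above 0.1 in 86 of 171 pairs (-0.26 to 0.48). Among arrays of other groups, 27 of 39 arrays correlated best with an array of their own number. Fits with the number as a block are given below.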

Additional observations from a re-analysis of the deposited data

Results flagged for a closer look

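Among the 81 sets of 4 arrays (9 members in 9 groups), 4 held a value set apart from the other 3 by Dixon's criterion, and chance gives about 1 in 20. Gstm4 was 14.26 in null mice with water, replicate 4, below the other 3 at 14.44 to 14.45. Gstp1 was 20.17 in wild type with PFOA 3 mg/kg, replicate 2, above 19.35 to 19.46. Srxn1 was 10.41 in null mice with methylcellulose, replicate 3, below 11.24 to 11.39. Gclm was 19.69 in null mice with methylcellulose, replicate 1, above 18.33 to 18.41; that array is the only one of its group in the smaller array set. The response of Gstp1 to pirinixic acid differed between genotypes by limma's test of the difference (null minus wild type 1.35, adjusted p = 0.040).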

How the results depend on the processing

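The 4 members raised by PFOA 3 mg/kg in wild type were called in every fit that left out 1 array, and 2 were called within the smaller array set; Ephx1 also lost its call with only the arrays compared. Over all 25295 probes the 1473 calls of this comparison became 262 within the smaller set and 441 with only the arrays compared. Without 1 array they lay between 825 and 1943. With PFOA 1 mg/kg in wild type the count of 2 became 1 with all probes that have at least 2 values per group or with an index of background signal (averaged over 583 probes of genes not active in liver) as a covariate, 0 within either array set or with only the arrays compared, and 1 to 4 without 1 array. With pirinixic acid in wild type the count of 2 became 4 with only probes above the median mean or with the index of background signal, 0 within the larger array set or with only the arrays compared, and 1 to 3 without 1 array. For PFOA 3 mg/kg in null mice the count of 3 became 1 within the smaller set, 0 within the larger set or with only the arrays compared, and 2 to 3 without 1 array. The genotype test for PFOA 3 mg/kg went from 0 to 1, Gstt2, with probes above the median mean, trend and robust moderation, cyclic loess, only the arrays compared and the replicate block, and stayed between 0 and 1 without 1 array. The genotype test for pirinixic acid went from 1 to 0 with all probes, within the larger set and with only the arrays compared, and lay between 0 and 1 without 1 array. Fits within a set or of only the arrays compared rest on fewer arrays by construction, with 1 array in an arm for PFOA 1 mg/kg in wild type (smaller set) and for null water (larger set). Beyond PFOA 3 mg/kg in wild type, the share of all probes called under each alternative is not given here. Moves in the count of members are therefore not read as results about the members.

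With the replicate block the Gstt2 genotype difference for PFOA 3 mg/kg had an adjusted p of 0.049 and its wild-type difference with pirinixic acid one of 0.046, and 27 of 39 arrays correlated best with their own number. The block left the Txnrd1 difference with PFOA 3 mg/kg in wild type at -0.07 and lowered its SE from 0.88 to 0.57. No called member changed sign under any alternative. The mean of all probes of a member was not run, since each has 1 probe. Counts over the 51 other pathway genes under the same alternatives were chosen after seeing the data.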
